A study of Mus musculus with 6 samples.

Results

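The 10 genes described here encode the cohesin subunits used in meiotic and mitotic cells (Rec8, Rad21l, Rad21, Smc1b, Smc1a, Smc3 and Stag3), the HORMA domain proteins of the meiotic chromosome axis (Hormad1 and Hormad2) and Trip13, the ATPase that acts on them. They were taken by symbol, and all 10 were found among the 49584 genes of the deposited table and passed the filter on low counts that left 13474 genes for testing. The 6 libraries were made by Smart-seq2, which amplifies full-length cDNA from few cells, from poly(A) RNA of mouse leptotene and zygotene spermatocytes sorted from testes at postnatal day 12. Of these, 3 carry the genotype label Srp68 SKO and 3 the label Wild type. The product of Srp68 is part of the signal recognition particle, which brings ribosomes to the endoplasmic reticulum, and the series title ties its loss to a defect in co-translational targeting and to meiotic arrest. The table names the mutant libraries CKO. The allele, the Cre driver and the animals behind each replicate are not given here. The p-values therefore set the genotype difference only against the spread between these samples, and that spread may be technical.

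Cohesin is a ring formed by a pair of SMC proteins and a kleisin, with an SA (STAG) protein bound to the kleisin. Mitotic cells use SMC1A, SMC3, the kleisin RAD21 and STAG1 or STAG2. Meiotic cells add SMC1B, the kleisins REC8 and RAD21L and the SA protein STAG3, while SMC3 is shared by both kinds of ring. These rings hold sister chromatids together and help build the axis from which chromatin loops extend. HORMAD1 and HORMAD2 bind the axis before homologues synapse, HORMAD1 promotes double-strand breaks and both take part in the surveillance of unsynapsed axes. TRIP13 remodels HORMA domains and removes the HORMAD proteins from axes that have synapsed.

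Library totals ran from 11853738 to 15381473 counts, and 3 counts corresponded to 0.174 to 0.289 CPM (counts scaled to library size and TMM factor). Srp68 itself was at 21.7, 29.3 and 22.6 CPM in the wild type libraries and at 12.1, 6.52 and 6.93 CPM in the SKO libraries (log2 fold change -1.52; Benjamini-Hochberg adjusted p = 0.00107 by the quasi-likelihood test of edgeR, which gives all adjusted p below unless another tool is named). Markers of early meiotic prophase were abundant in every library, with a summed level of 13890 to 17500 CPM in wild type and 20240 to 25850 CPM in SKO over 8 genes. Of these 8, 5 rose, 2 fell (Tex101 and Spo11) and 1 did not pass (Meiob). Sycp3 made up much of the sum, with means of 5664 CPM in wild type and 11220 CPM in SKO. Most tested preleptotene and pachytene markers moved with genotype, while most tested spermatogonial markers did not pass. Of 5 preleptotene markers 4 rose, among them Stra8, with sums of 432 to 533 CPM in wild type and 1178 to 1300 CPM in SKO. Of 10 pachytene markers 8 were tested, of which 6 fell and 1 rose, with sums of 744 to 865 and 607 to 700 CPM. Tbpl1 and Hspa2 made up much of these sums. Their means were 340 and 244 CPM in wild type and 279 and 257 CPM in SKO. The median log2 fold change of the 8 tested pachytene markers was -1.56. Of 6 differentiating spermatogonia markers 1 fell and 0 rose, with sums of 186 to 232 and 160 to 198 CPM. Of 8 undifferentiated spermatogonia markers 5 were tested and 0 passed, with sums of 11.5 to 26.9 and 15.4 to 20.7 CPM. Among all tested genes 14.1% were called higher and 14.4% lower. Of the somatic lists, 7 Sertoli genes summed to 11.2 to 16.0 CPM in wild type and 8.94 to 28.1 in SKO, and 5 macrophage genes to 0 to 2.13 and 1.23 to 13.2. Of 5 Leydig markers, which summed to 0.580 to 6.60 and 4.86 to 9.03 CPM, Cyp11a1 and Cyp17a1 had 0 counts in all 6 libraries. Of 4 myoid markers, which summed to 1.04 to 2.36 and 4.61 to 13.3 CPM, 1 was tested and rose (Acta2). The 5 erythroid markers varied widely between libraries, with sums of 2.77 to 136.7 CPM in wild type and 37.1 to 148 CPM in SKO. Hba-a1 was at 78.8 CPM in wild type replicate 3 and under 2 CPM in the other wild type libraries, and Alas2 had 0 counts in all 6. The part of these cell and stage markers in the results was not tested, and in bulk RNA fewer cells of a stage and less RNA per cell cannot be told apart.

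Promoter sequence is shown for the HORMAD pair and for Smc1b, because Hormad1 and Smc1b are the members with the highest levels and Hormad2 is the paralogue of Hormad1. The windows are the 250 bases before the RefSeq start (GRCm38.p6), available for 9 of the 10 genes. Capitals mark matches on either strand to CNCCTCAG, the motif of the meiotic entry factor STRA8, to CACGTG, an E-box bound by MGA and MAX, or to GCGGGA, bound by E2F6. No 2 matches overlapped in the windows printed. MGA and E2F6 belong to a repressive complex known to silence meiotic genes in other cells. The sequences read as follows, Hormad1 from chr3:95559427-95559676 on the plus strand, Hormad2 from chr11:4441083-4441332 on the minus strand and Smc1b from chr15:85131958-85132207 on the minus strand.
Hormad1: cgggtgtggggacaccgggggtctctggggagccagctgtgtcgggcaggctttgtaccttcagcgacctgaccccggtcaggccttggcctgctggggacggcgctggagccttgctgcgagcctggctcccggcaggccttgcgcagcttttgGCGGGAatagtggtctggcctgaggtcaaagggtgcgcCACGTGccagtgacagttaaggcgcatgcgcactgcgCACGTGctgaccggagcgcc
Hormad2: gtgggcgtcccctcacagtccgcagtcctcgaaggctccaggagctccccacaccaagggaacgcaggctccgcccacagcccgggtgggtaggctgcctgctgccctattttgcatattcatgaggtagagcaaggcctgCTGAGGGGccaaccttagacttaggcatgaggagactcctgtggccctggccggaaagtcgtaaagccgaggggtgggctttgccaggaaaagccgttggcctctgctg
Smc1b: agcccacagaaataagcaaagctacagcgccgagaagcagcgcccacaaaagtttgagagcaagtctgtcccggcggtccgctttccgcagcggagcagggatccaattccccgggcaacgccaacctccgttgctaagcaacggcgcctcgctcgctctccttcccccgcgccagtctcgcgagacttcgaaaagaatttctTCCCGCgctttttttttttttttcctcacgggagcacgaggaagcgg

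Hormad1 had a pair of E-boxes, beginning 57 and 20 bases before the start, and an E2F6 match at 95 bases. Hormad2 had neither but held the STRA8 motif at 109 bases, and Smc1b held an E2F6 match at 47 bases. Among the 9 windows, the STRA8 motif occurred in 1, the E-box in 2 (Hormad1 and Stag3) and the E2F6 motif in 4 (Rec8, Smc1b, Smc3 and Hormad1). Over the 27025 genes with such a window the shares were 7.39%, 6.86% and 18.8%. The window of Rad21l, which is counted among the 9 and holds no match, is not described further. Its gene model in GENCODE vM21 begins at the start codon, so the window may not be its promoter. A match is a string of letters and not a measured binding site.

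The 10 transcripts differed widely in level. Levels between genes are compared in CPM per kilobase of annotated exon, using GENCODE vM21 exon lengths. In wild type cells Hormad1 stood first at 1769 ± 258 CPM per kb (SD, n = 3), which placed it at rank 16 of 13452 genes, and Smc1b next at 382 ± 39.3 CPM per kb. Hormad2 (65.3 ± 3.52) and Smc3 (60.0 ± 4.09) followed, with ranges over libraries that overlapped. Stag3 was at 28.5 ± 2.65, Trip13 at 23.2 ± 1.67, Rad21 at 15.5 ± 1.22, Rad21l at 11.9 ± 0.940 and Smc1a at 7.34 ± 0.383 CPM per kb. Rec8 was last at 0.839 ± 0.122 CPM per kb, at rank 10328. All other neighbours in this order had separate ranges.

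In SKO cells Hormad1 and Smc1b again led, at 2955 ± 423 and 742 ± 80.3 CPM per kb. Smc3 (86.5 ± 8.50) stood above Hormad2 (67.5 ± 4.38), and Rad21l moved from below Rad21 to above Stag3, at 39.9 ± 3.79 CPM per kb. Stag3 followed at 29.2 ± 2.45, then Trip13 (17.8 ± 1.29) and Rad21 (17.6 ± 3.20), which were the neighbours with overlapping ranges, then Smc1a (9.20 ± 0.461) and Rec8 (0.607 ± 0.309). The gene model of Rad21l holds 1659 bases of coding sequence and 0 of UTR. Its level per kb thus rests on a shorter model than the others, whose models have 300 (Smc1b) to 2324 (Rad21) bases of UTR. Close neighbours in the order also depend on the length used. Per kb of longest transcript, the SKO means were 98.8 for Smc3 and 93.8 for Hormad2, and 18.2 for Trip13 and 18.8 for Rad21.

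**Figure D1:**
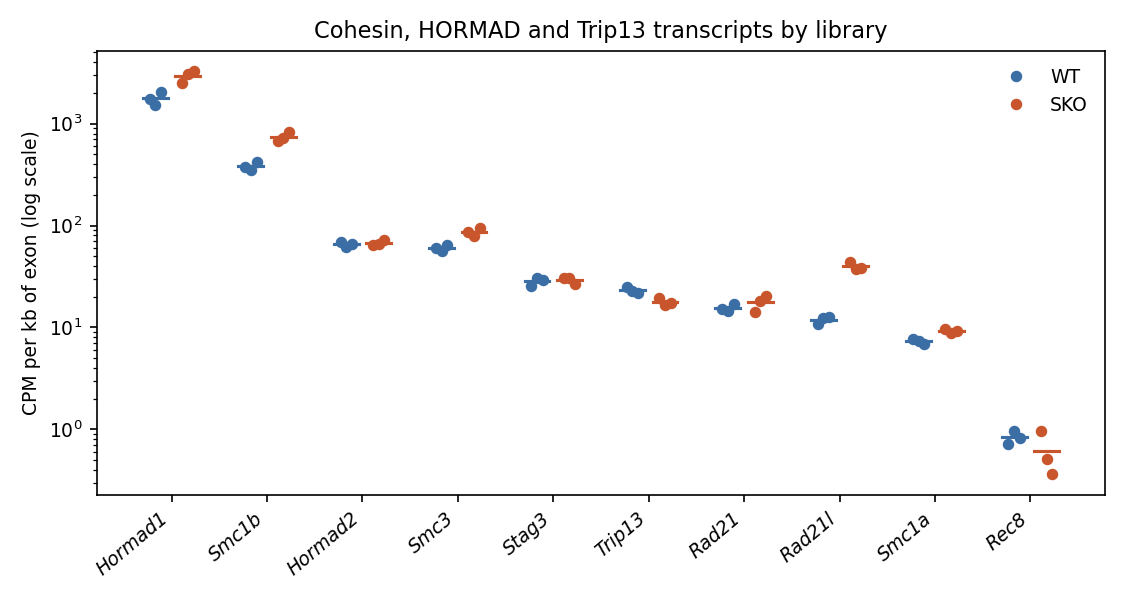
Level of each of the 10 transcripts in CPM per kb of exon on a log axis, ordered by the wild type mean; points are the 3 wild type (WT) and 3 SKO libraries, and horizontal bars are group means. Hormad1 is at 1518 to 2034 in wild type, Rec8 stays under 1, and Rad21l goes from 11.9 to 39.9.

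Of the 10 genes, 4 rose in SKO spermatocytes (Rad21l, Smc1b, Hormad1 and Smc3), 1 fell (Trip13) and 5 did not pass an adjusted p of 0.05 (Smc1a, Rad21, Hormad2, Stag3 and Rec8). Among all 13474 tested genes 14.1% were called higher, 14.4% lower and 28.5% in either direction. The median log2 fold change of the 10 genes was 0.25 and that of all tested genes -0.03. The SKO and wild type libraries did not overlap for 6 of the 10 genes, against 43.8% of all tested genes. With library totals in place of TMM, 1010 genes were called higher and 3168 lower (1901 and 1937 with TMM) and the median of all genes was -0.29, while 4 members were still called higher and 1 lower, at a member median of -0.01. On that scale the values of Rad21 (-0.08), Stag3 (-0.22) and Hormad2 (-0.22) were negative. Of the meiosis-specific subunits Rad21l and Smc1b rose and Stag3 and Rec8 did not pass, and of the mitotic forms Rad21 and Smc1a did not pass. With offsets for GC content and length 3 of the 10 were called higher and 1 lower.

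Among the kleisins, Rad21l (ENSMUSG00000074704; GRCm38 chromosome 2, 151645404 to 151668533, minus strand) showed the steepest change. The 3 wild type libraries held 280, 351 and 321 counts and the 3 SKO libraries 893, 667 and 657, or 18.0, 20.3 and 21.0 against 73.5, 62.1 and 63.2 CPM. Every SKO library was above every wild type library. The rise was 3.35-fold (log2 fold change 1.74, SE 0.16, 95% interval 1.40 to 2.09; edgeR adjusted p = 5.78e-06). RAD21L is a kleisin found on axes in early meiotic prophase, and male mice lacking it are known to be infertile.

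Rec8 (ENSMUSG00000002324; chromosome 14, 55618037 to 55625395, plus strand), the kleisin that keeps sister chromatids joined until the meiotic divisions, was sparse. Wild type replicates held 33, 49 and 37 counts and SKO replicates 34, 16 and 11, or 2.13, 2.84 and 2.42 against 2.80, 1.49 and 1.06 CPM. SKO replicate 1 lay inside the wild type range, and the other SKO libraries lay under it. The log2 fold change was -0.46 with a 95% interval from -1.77 to 0.85 (edgeR adjusted p = 0.623). These libraries could therefore show neither a fall nor a rise of moderate size. The parts of low counts and of spread between libraries in this width were not tested.

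Rad21 (ENSMUSG00000022314; chromosome 15, 51962240 to 51991747, minus strand), the mitotic kleisin, was at 63.7, 61.4 and 71.3 CPM in wild type and 59.6, 77.4 and 86.1 CPM in SKO. The groups overlapped, with a log2 fold change of 0.18 (95% interval -0.15 to 0.52; edgeR adjusted p = 0.415).

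Of the SMC subunits, Smc1b and Smc3 rose and Smc1a did not pass. Smc1b (ENSMUSG00000022432; chromosome 15, 85064689 to 85131964, minus strand), the meiosis-specific partner of SMC3, rose from 1513, 1405 and 1718 CPM to 2710, 2942 and 3351 CPM. The groups were well apart, and the rise was 1.94-fold (log2 fold change 0.96, SE 0.10, 95% interval 0.73 to 1.18; edgeR adjusted p = 1.91e-05). Smc3 (ENSMUSG00000024974; chromosome 19, 53600398 to 53645833, plus strand), which both kinds of ring need, rose from 330, 311 and 356 to 474, 435 and 529 CPM, 1.44-fold (log2 0.53, SE 0.11, 95% interval 0.30 to 0.75; edgeR adjusted p = 0.00186). Smc1a (ENSMUSG00000041133; chromosome X, 152016428 to 152062694, plus strand), the mitotic form, was at 44.4, 42.7 and 40.02 against 55.6, 50.3 and 53.4 CPM. Its libraries also did not overlap, but the gene did not pass (log2 fold change 0.32, 95% interval 0.01 to 0.64; edgeR adjusted p = 0.114).

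Stag3 (ENSMUSG00000036928; chromosome 5, 138280240 to 138312393, plus strand), the SA subunit of meiotic rings, was at 147, 176 and 167 CPM in wild type and 176, 175 and 151 CPM in SKO. The groups overlapped fully (log2 fold change 0.04, 95% interval -0.21 to 0.29; edgeR adjusted p = 0.850). Its mitotic relatives both rose: Stag1 from 136 ± 10.2 to 201 ± 4.82 CPM (SD, n = 3; edgeR adjusted p = 0.0014) and Stag2 from 41.3 ± 5.06 to 91.1 ± 1.90 CPM (5.19e-05).

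Of the HORMAD genes, Hormad1 rose and Hormad2 did not pass, but with offsets for GC content and length the call of Hormad1 was lost (log2 fold change 0.03, adjusted p = 0.836) and Hormad2 was at -0.07. Hormad1 (ENSMUSG00000028109; chromosome 3, 95559677 to 95587671, plus strand) rose from 3035, 2624 and 3516 CPM to 4290, 5343 and 5694 CPM, a rise of 1.67-fold (log2 fold change 0.74, SE 0.12, 95% interval 0.48 to 1.00; edgeR adjusted p = 0.000403). Its lowest SKO library lay above its highest wild type library. Hormad2 (ENSMUSG00000020419; chromosome 11, 4345814 to 4441105, minus strand), needed for the checkpoint on unsynapsed chromosomes, was at 187, 168 and 181 against 176, 180 and 198 CPM. The groups overlapped (log2 fold change 0.05, 95% interval -0.18 to 0.28; edgeR adjusted p = 0.786).

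Trip13 (ENSMUSG00000021569; chromosome 13, 73911347 to 73937784, minus strand) was the single member that fell. It went from 87.1, 78.4 and 76.0 CPM to 66.7, 58.1 and 60.5 CPM, without overlap. The log2 fold change was -0.38 (SE 0.13, 95% interval -0.67 to -0.10), and the adjusted p of 0.0453 in edgeR lay close to the threshold. The call was lost with upper-quartile scaling (0.067), DESeq2 size factors in edgeR (0.0523), limma-voom (0.05 after rounding, above the threshold) and no filter on low counts (0.0663). It was also lost when wild type replicate 1 (0.14) or 2 (0.0838) or SKO replicate 2 (0.164) or 3 (0.119) was left out. The call held with library totals only (log2 fold change -0.64, edgeR adjusted p = 0.00365). It held too with DESeq2 (0.0331), a filter at 5 CPM (0.0277) and a replicate block (0.0444). It also held without mitochondrial and ribosomal protein genes (0.0488), with the GC content and length offsets (0.0325), and with offsets and block together (0.0355). Without wild type replicate 3 (0.0498) or SKO replicate 1 (0.0489) it was kept as well. The direction of Trip13 was negative in all of these fits.

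The changes varied with transcript GC content, and length was fitted only together with it. Across 13452 tested genes the log2 fold change fell with GC content (Pearson r = -0.30, Spearman rho = -0.34 across genes, which are not independent replicates). The loess trend of expression on GC content and exon length differed between genotypes by 0.71 (log2, SKO minus wild type) at the values of Hormad1, whose longest transcript has 35.8% GC, by 0.38 at Rad21l (40.9%), by 0.32 at Smc1b (39.8%) and by -0.64 at Rec8 (56.7%). With these trends as offsets the log2 fold change of Hormad1 was 0.03 (edgeR adjusted p = 0.836) and its call was lost. Rad21l stood at 1.37 (5.25e-05), Smc1b at 0.64 (6.17e-05), Smc3 at 0.35 (0.0168) and Trip13 at -0.40 (0.0325), and their calls held. Rec8 turned to 0.14, without passing (0.904). Of Stag1 and Stag2, Stag1 lost its call (0.18; adjusted p = 0.227). The part of GC content and length in the differences was not tested.

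**Figure D2:**
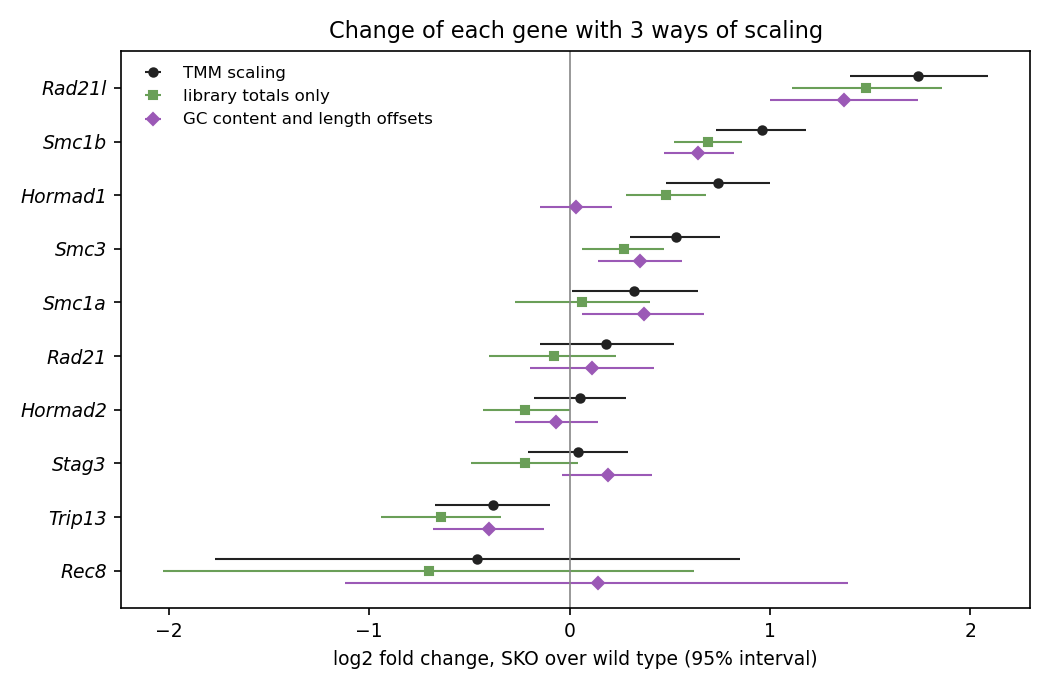
Log2 fold change (SKO over wild type) of each gene in edgeR with TMM scaling, with library totals only, and with GC content and length offsets; bars are 95% intervals. Rad21l and Smc1b stay right of 0 in all 3, Hormad1 goes to 0.03 with the offsets, and Rec8 has the widest interval.

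Ratios between 2 forms within a library do not depend on scaling between libraries, and 6 were compared by two-sided exact permutation tests, which cannot give a p below 0.1 with 3 libraries against 3. Rad21l to Rad21 was at -0.47, -0.24 and -0.41 (log2 of counts per kb) in wild type and at 1.65, 1.03 and 0.91 in SKO. The difference of the means was 1.57, a 2.97-fold shift (exact p = 0.1, Benjamini-Hochberg p = 0.12 over the 6 ratios). Per kb of exon, Rad21l thus went from below the mitotic kleisin to above it. This crossing rests on the exon lengths, while the shift does not. In SKO counts, Rad21l was at 893, 667 and 657 and Rad21 at 724, 832 and 895, so Rad21l was above in replicate 1 only. Rad21l to Rec8 went from 3.82 ± 0.15 to 6.11 ± 0.57 (SD, n = 3; exact p = 0.1, adjusted 0.12), with Rec8 at 11 to 49 counts. Rec8 to Rad21 overlapped between the groups, at -4.19 ± 0.26 and -4.92 ± 0.96 (exact p = 0.4, adjusted 0.4).

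Smc1b to Smc1a was at 5.60, 5.55 and 5.93 in wild type and 6.12, 6.38 and 6.48 in SKO, higher by 0.63 (exact p = 0.1, adjusted 0.12). The SA ratio went the other way. Stag3 to Stag1 plus Stag2 was at 0.77, 0.79 and 0.79 in wild type and at 0.16, 0.09 and -0.09 in SKO, lower by 0.73 on the log2 scale, with SDs of 0.01 and 0.13 (SKO minus wild type -0.73; exact p = 0.1, adjusted 0.12). Hormad2 to Hormad1 was at -4.75 ± 0.17 in wild type and -5.44 ± 0.15 in SKO (difference -0.69; exact p = 0.1, adjusted 0.12). Apart from Rec8 to Rad21, each ratio had groups that did not overlap, which is what an exact p of 0.1 states. Single genes had groups without overlap in 43.8% of all tested genes, and no such share was computed for ratios. Rad21l to Rad21 and Rad21l to Rec8 also share a gene. With the GC content and length trends removed, the differences were 1.26 for Rad21l to Rad21, 0.27 for Smc1b to Smc1a, -0.18 for the SA ratio and -0.09 for Hormad2 to Hormad1.

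**Figure D3:**
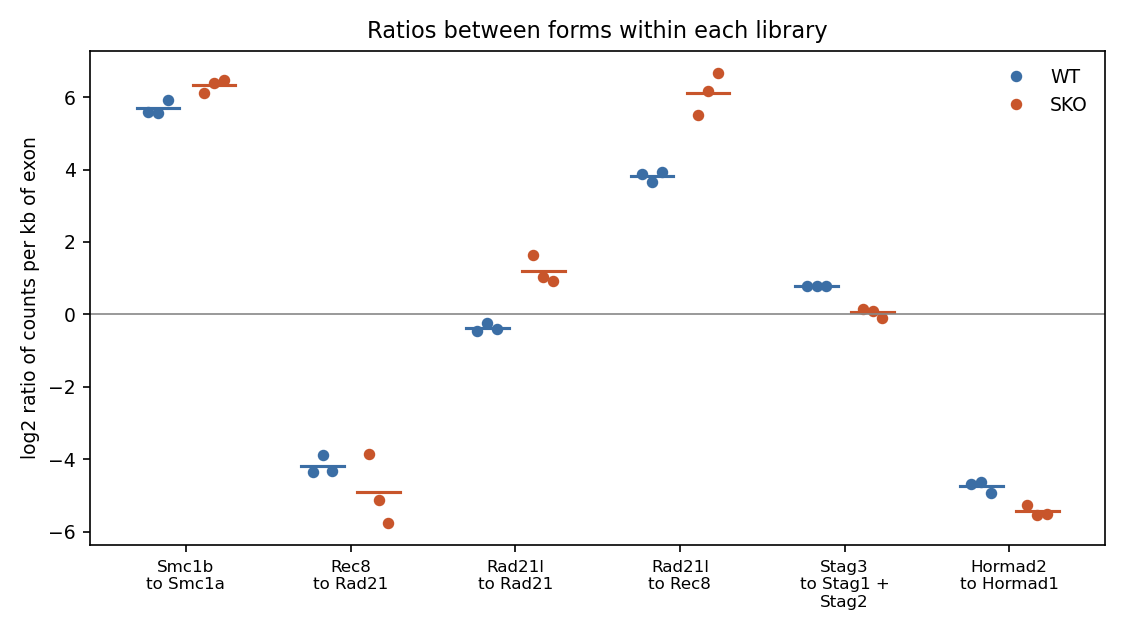
Log2 ratio of counts per kb of exon between 2 forms in each library, with group means as bars; points are 3 wild type (WT) and 3 SKO libraries. Rad21l to Rad21 crosses 0 between the genotypes, from a mean of -0.37 to 1.20, and Stag3 to Stag1 plus Stag2 drops from 0.78 to 0.05. Where 0 lies depends on the exon lengths used.

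As shares of the kleisin transcripts per kb, Rad21l made up 42.3 ± 1.74% in wild type and 68.7 ± 5.27% in SKO (SD, n = 3), Rad21 54.8 ± 2.17% and 30.3 ± 5.77%, and Rec8 2.98 ± 0.443% and 1.04 ± 0.511%. Within the SA genes Stag3 made up 63.2 ± 0.133% and 50.9 ± 2.28%, Stag1 25.7 ± 0.513% and 29.8 ± 1.24%, and Stag2 11.1 ± 0.414% and 19.2 ± 1.05%. The meiotic form held nearly all of the SMC1 transcripts in both genotypes, with Smc1b at 98.1 ± 0.259% and 98.8 ± 0.162%. These shares restate the levels above and rest on the annotated exon lengths.

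**Figure D4:**
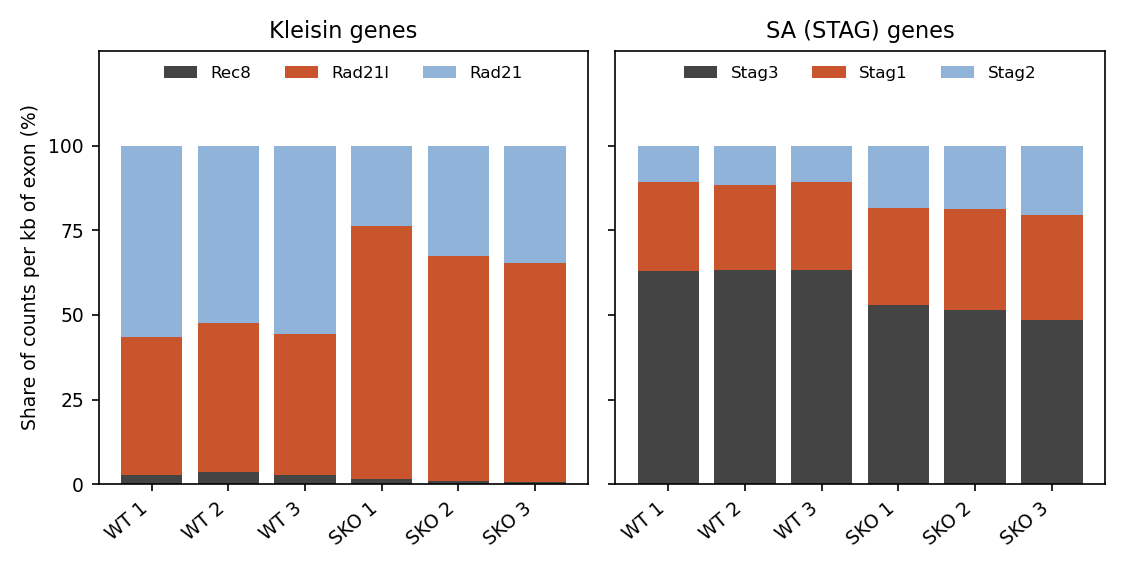
Share of counts per kb of exon taken by each kleisin gene (left) and each SA gene (right) in the 3 wild type (WT) and 3 SKO libraries; each bar sums to 100%. Rad21l takes 40.8 to 44.2% of wild type and 64.8 to 74.7% of SKO kleisin transcripts, and Stag3 goes from 63.1 to 63.3% to 48.4 to 52.8%.

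Of 16 genes that encode mitotic SA subunits or load, acetylate, release, cleave or protect cohesin, 8 rose, 2 fell and 6 did not pass, with a median log2 fold change of 0.37. Here and for the lists that follow, the shares over all tested genes were 14.1% higher and 14.4% lower, and their median was -0.03. With library totals only, 5 of the 16 rose and 2 fell, at a median of 0.11. Esco2, which acetylates SMC3 during DNA replication, rose from 324 ± 54.8 to 843 ± 98.5 CPM (SD, n = 3; edgeR adjusted p = 6.29e-06), Stag2 rose as given above, and Esco1, the other acetyltransferase, rose from 180 ± 7.92 to 274 ± 25.04 CPM (0.00076). Nipbl, which loads cohesin (log2 fold change 0.56), and Wapl, which releases it (0.64), likewise rose; this pair was picked out with the values known. Meikin, a meiosis-specific kinetochore protein that protects centromeric cohesion, fell from 41.0 ± 5.05 to 21.1 ± 1.80 CPM (0.00141), and Cdca5, which encodes sororin, fell from 32.9 ± 0.507 to 19.4 ± 3.51 CPM (0.0103). With the GC content and length offsets 3 rose and 1 fell, at a median of 0.10, and Esco1 (adjusted p = 0.0569) and Cdca5 (0.071) lost their calls. Cdca5 also lost its call without SKO replicate 3 (0.0521).

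All 9 genes of the axis core, of break formation and of the kinases and repair factors that act on unsynapsed axes or of SCF rose, with 0 falling in edgeR, DESeq2 or limma-voom (0 also at an unadjusted p under 0.05) and a median log2 fold change of 0.69. Sycp3 and Sycp2, which form the core of the axis, rose from 5664 ± 698 to 11220 ± 2197 CPM (edgeR adjusted p = 7.05e-05) and from 1402 ± 209 to 2529 ± 292 CPM (0.000107). Skp1a, a subunit of SCF ubiquitin ligases, rose from 1508 ± 65.1 to 2331 ± 228 CPM (0.000213). With library totals only 5 of the 9 passed, and with the GC content and length offsets 6 did, at a median of 0.50. Sycp3, whose longest transcript has 34.3% GC, was then at 0.12 (adjusted p = 0.486). It shares 660 exon bases with another gene, so its count is uncertain.

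The other HORMA domain genes and the adaptor of TRIP13 did not rise. Of 5 genes 3 fell, 0 rose in edgeR, DESeq2 or limma-voom (0 at an unadjusted p under 0.05) and 2 did not pass, with a median log2 fold change of -0.76. Mad2l2, also called Rev7, went down from 72.0 ± 9.94 CPM to 31.3 ± 6.42 (log2 fold change -1.20, adjusted p in edgeR = 0.000231), and was at -0.51 (0.0227) with the GC content and length offsets. The autophagy genes Atg13 and Atg101 fell from 29.9 ± 8.98 to 11.1 ± 1.27 CPM (0.000865) and from 71.1 ± 12.2 to 44.3 ± 10.8 CPM (0.0159). Mad2l1bp, which encodes the adaptor that presents HORMA domains to TRIP13, was at 10.9 ± 5.53 and 6.41 ± 2.57 CPM and did not pass (adjusted p = 0.211; picked out with its values known). Atg101 lost its call with the GC content and length offsets (log2 fold change -0.17; 0.525), and when wild type replicate 1 (0.0534) or 2 (0.0802) or SKO replicate 3 (0.0744) was left out.

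The other SMC complexes moved in both directions. The list of 15 condensin and SMC5/6 genes covers complexes that compact chromosomes and act in repair. It also holds Smchd1, an SMC protein of neither complex, which did not pass (log2 fold change 0.32, edgeR adjusted p = 0.0778). Of the 15 genes, 6 rose, 2 fell and 7 did not pass, with a median log2 fold change of 0.08. Among all tested genes 14.1% were higher and 14.4% lower. Ncapg2 rose from 98.1 ± 8.81 to 180 ± 3.33 CPM (edgeR adjusted p = 7.16e-05), Smc6 from 416 ± 36.3 to 656 ± 73.0 CPM (0.000474) and Smc2, of the condensin core, from 274 ± 20.6 to 413 ± 24.7 CPM (0.000622). Ncaph2, the kleisin of condensin II, fell from 42.5 ± 6.67 to 19.97 ± 2.10 CPM (0.000759) and Ncapd2 from 54.4 ± 8.04 to 32.5 ± 7.82 CPM (0.00966). Both share exon bases with another gene (829 and 237), so their counts are uncertain. With the offsets for GC content and length 3 rose and 2 fell, at a median of -0.26, so the sign of the median turned. Smc6 (0.20; adjusted p = 0.184) and Ncapd2 (-0.38; 0.0994) then lost their calls, and Ncapd2 also without SKO replicate 2 (0.0582) or 3 (0.0546) or wild type replicate 2 (0.0545). With library totals only, 4 rose and 5 fell, at a median of -0.18.

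**Figure D5:**
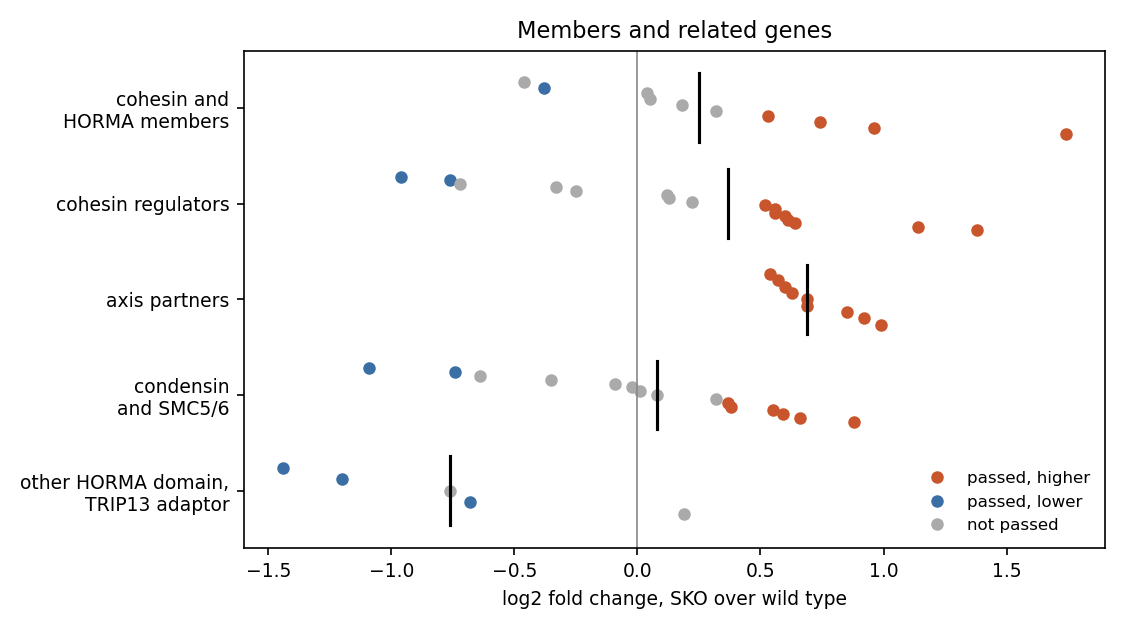
Log2 fold change (SKO over wild type, TMM scaling) of each gene in the 5 sets; colour marks genes that passed an adjusted p of 0.05, and black bars are medians. All 9 axis partners lie right of 0 (median 0.69), and 4 of 5 other HORMA domain and adaptor genes lie left of it (median -0.76).

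The protein-coding genes with the profile closest to each member over the 6 libraries, by root mean square difference of centred log2 CPM, were Pip4p2 for Rad21l (0.131), Snrpe for Smc1b (0.0292), Anapc10 for Hormad1 (0.0427) and Ttll5 for Trip13 (0.0291). Rad21l was thus farther from its nearest gene than these other members were from theirs. It also had the largest log2 fold change of the members (1.74), which enters the same profile. The part of that change in the distance was not tested. The distance of Rec8 to its nearest gene, 2510002D24Rik, was 0.0544.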

How the data were processed

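Poly(A) RNA of 6 libraries was compared by genotype, 3 labelled Srp68 SKO and 3 Wild type. Per the submitters' processing notes, reads were checked with FastQC, trimmed with Trim Galore 0.6.4 and aligned with HISAT2 2.0.5, with builds GRCm38 and mm10. For the counting tool, the strand setting and the annotation: not given in the sources used here. Values are gene counts as the authors deposited them, without normalization. Columns named CKO were assigned to the SKO samples by genotype and replicate number. GENCODE vM21 gave symbols, positions, exon lengths and GC content for 49325 of 49584 genes; none of the 10 members shares exon sequence with another gene there. No molecular identifiers are named, so the floor of 3 counts covers counting error only; edgeR's intervals and p-values cover the spread between libraries.

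The main test was edgeR 4.0.16 (R 4.3.3): filterByExpr, TMM, quasi-likelihood test with genotype as the only term, Benjamini-Hochberg over all 13474 tested genes, threshold 0.05. CPM are TMM-scaled. Fold changes are SKO over wild type. Ratios used counts plus 0.5 per kb of exon, and two-sided exact permutation tests. DESeq2 1.42.0, limma 3.58.1 (voom), other scalings and filters, GC content and length offsets (loess, span 0.3, 99.8% of tested genes), a replicate block and leaving out each library were alternatives.

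The members and lists were chosen with earlier results of these data known, so no list was tested as a set. Named genes were the members, Srp68, Stag1, Stag2 and, per list, up to 3 called genes in each direction by smallest p. No 2 libraries of 1 genotype agreed within sampling noise (chi-square over its degrees of freedom 12.0 to 22.2).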

Additional observations from a re-analysis of the deposited data

How the results depend on the processing

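Rad21l, Smc1b and Smc3 kept their direction and their call at 0.05 under all alternatives run. Smc3 lay close to the threshold with library totals only (log2 fold change 0.27, edgeR adjusted p = 0.0455). Hormad1 lost its call with GC content and length offsets. The 4 members called higher stayed 4 without each library in turn, and the 1 called lower became 0 with DESeq2 size factors in edgeR, upper-quartile scaling, no filter, limma-voom or a threshold of 0.01, and ran from 0 to 1 without each library. With library totals only, 1010 genes were called higher and 3168 lower over the whole table, 5 of the axis partners were called, and the median of all tested genes moved from -0.03 to -0.29. Log2 fold changes then turned sign for Rad21 (-0.08), Stag3 (-0.22) and Hormad2 (-0.22). At 0.01, 1230 genes were higher and 1142 lower. With the GC content and length offsets 4 cohesin regulators and 5 condensin and SMC5/6 genes were called, Rec8 turned to 0.14 and Hormad2 to -0.07, and the ratio differences were 0.27 (Smc1b to Smc1a), -0.01 (Rec8 to Rad21), 1.26 (Rad21l to Rad21), 1.27 (Rad21l to Rec8), -0.18 (Stag3 to Stag1 plus Stag2) and -0.09 (Hormad2 to Hormad1). Without each library in turn Stag3 ran from -0.03 (without wild type replicate 1) to 0.10 and Hormad2 from -0.01 (without SKO replicate 3) to 0.08. Leaving out each library gave 1361 to 1916 genes higher and 1373 to 1851 lower, 8 to 10 cohesin regulators, 2 to 3 other HORMA domain and adaptor genes, 7 to 9 axis partners and 5 to 8 condensin and SMC5/6 genes; the ratio differences ran from 0.55 to 0.75 (Smc1b to Smc1a), -1.25 to -0.30 (Rec8 to Rad21), 1.34 to 1.72 (Rad21l to Rad21), 2.02 to 2.59 (Rad21l to Rec8), -0.78 to -0.65 (Stag3 to Stag1 plus Stag2) and -0.79 to -0.63 (Hormad2 to Hormad1). The causes of these changes were not tested. Rec8 had 11 to 49 counts per library and a wide interval in the main fit (-1.77 to 0.85).

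Same-numbered libraries did not deviate together (correlations 0.028, -0.046 and 0.052). With 3 libraries per genotype this cannot exclude a shared origin, and the labels do not say whether the numbers pair samples. With a replicate block 4 members were called higher and 1 lower, and no count of calls moved by over 1.5 times. With the block and the offsets together 4 cohesin regulators and 5 condensin and SMC5/6 genes were called, Rec8 was at 0.08 and Hormad2 at -0.07.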
